A study of Homo sapiens with 3 samples.

Results

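The squamous miRNAs described here are 6 mature human miRNAs of stratified squamous epithelium: hsa-miR-205-5p, hsa-miR-203a-3p, hsa-miR-31-5p, hsa-miR-944, hsa-miR-224-5p and hsa-miR-452-5p. They were taken by name from a deposited small RNA sequencing table of 1149 miRNAs, and all 6 were found in it. The cells were clones of CAL-27, an established line from a human tongue squamous cell carcinoma, and each of 3 groups was sequenced as 1 library. CC was the untreated control. The library labelled Mock was, by the design text, exposed once to 2 Gy of X-rays, and RR, the radioresistant group, took 2 Gy each day for 5 days in each of 2 cycles, with 2 weeks to recover after either cycle. The treatment tag is Ctrl on CC, IR on Mock and Gy2 on RR, so that the tags alone do not tell the single from the repeated exposure, and each direction below belongs to the library as labelled. The number of clones in a library is likewise not given in the sources used here. A single library per group leaves the spread between cultures unmeasured, so no test was run. An interval covers counting error alone.

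Mature miRNAs are strands of about the same length cut from a hairpin. Loaded into an Argonaute protein, they find target mRNAs mainly through the seed, bases 2 to 8. In stratified epithelia, miR-205 marks the basal, p63-positive layer and represses the mesenchymal factors ZEB1 and ZEB2, while miR-203 appears as keratinocytes leave that layer and represses p63 itself. miR-31 is known from hyperproliferative keratinocytes and from oral carcinoma, where it represses the HIF-1 inhibitor FIH. The gene of miR-944 lies within TP63, which encodes p63, and those of miR-224 and miR-452 lie within GABRE, which encodes a GABA-A receptor subunit.

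The mature sequences are printed to show that the 6 miRNAs have 6 different seeds, so that none stands in for another. They are RefSeq's on GRCh38.p14, 5′ to 3′ with the seed in capitals. All 6 members matched by name, and all 6 were identical to the sequences in the deposited table apart from U for T.
miR-205-5p: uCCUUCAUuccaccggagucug
miR-944: aAAUUAUUguacaucggaugag
miR-203a-3p: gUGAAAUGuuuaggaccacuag
miR-31-5p: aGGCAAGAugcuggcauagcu
miR-224-5p: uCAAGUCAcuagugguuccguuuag
miR-452-5p: aACUGUUUgcagaggaaacuga

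Only the seed of miR-452-5p was found in another listed miRNA, miR-4676-3p, which had 7 reads (CC), 2 (Mock) and 4 (RR). No listed miRNA lay within 2 mismatches of a member over 18 or more bases on the sense strand. By this measure the table holds no near-copy of a member, while sharing of reads with unlisted sequences was not checked. The members spanned a GC content of 31.8% in miR-944 to 54.5% in miR-205-5p. The sequence listed for miR-224-5p had 25 bases, and the others had 21 or 22.

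On GRCh38, the MIR205 hairpin (chr1:209432133-209432242, plus strand) overlaps exons of the non-coding MIR205HG. MIR944 (chr3:189829922-189830009, plus strand) lies in an intron of TP63 on the same strand. MIR203A (chr14:104117405-104117514, plus strand) has no annotated host but overlaps MIR203B on the opposite strand. MIR31 (chr9:21512115-21512185, minus strand) lies in an intron of the non-coding MIR31HG. MIR224 (chrX:151958578-151958658) and MIR452 (chrX:151959628-151959712) lie on the minus strand within GABRE, 969 bases apart, and meet its exons only in transcripts annotated as retained introns. No other pair of members shares a host gene.

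The library totals behind the per-million scale were 10473400 to 10769990 reads, of which reads of listed miRNAs made up 16.3% (CC), 23.2% (Mock) and 20.5% (RR). A level is given in rpm, reads per 1000000 of that total, with an exact 95% Poisson interval. The floor, 3 reads, was worth 0.279 to 0.286 rpm. Counts of changed miRNAs cover the 208 whose mean reached 10 rpm, which include 4 members: miR-205-5p, miR-203a-3p, miR-31-5p and miR-224-5p. The means of miR-944 (8.52 rpm) and miR-452-5p (1.13 rpm) were below that minimum, so both are given as values and enter no count. Log2 ratios were taken after adding 1 rpm, and folds that carry an interval are of unchanged values. Over the 208 miRNAs the median log2 ratio was 0.36 in RR over CC, 0.28 in Mock over CC and 0.06 in RR over Mock. Median-ratio scaling of the libraries took these medians to -0.02, -0.01 and -0.01, and shares of miRNA reads took them to 0.03, -0.22 and 0.23, so a member is best read against the median of its comparison.

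miR-205-5p, the basal epithelial member, was the most abundant miRNA of CC and of RR and the fourth of Mock, ranking 1, 1 and 4. It stood at 25945 rpm in CC (25849 to 26041), 14174 rpm in Mock (14103 to 14246) and 29651 rpm in RR (29547 to 29756). CC and RR were high and Mock was low, and the intervals did not overlap. Of all miRNA reads, miR-205-5p took up 16% (CC), 6.12% (Mock) and 14.5% (RR). In such bulk RNA, fewer cells with a miRNA and less of it per cell cannot be told apart.

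**Figure D1:**
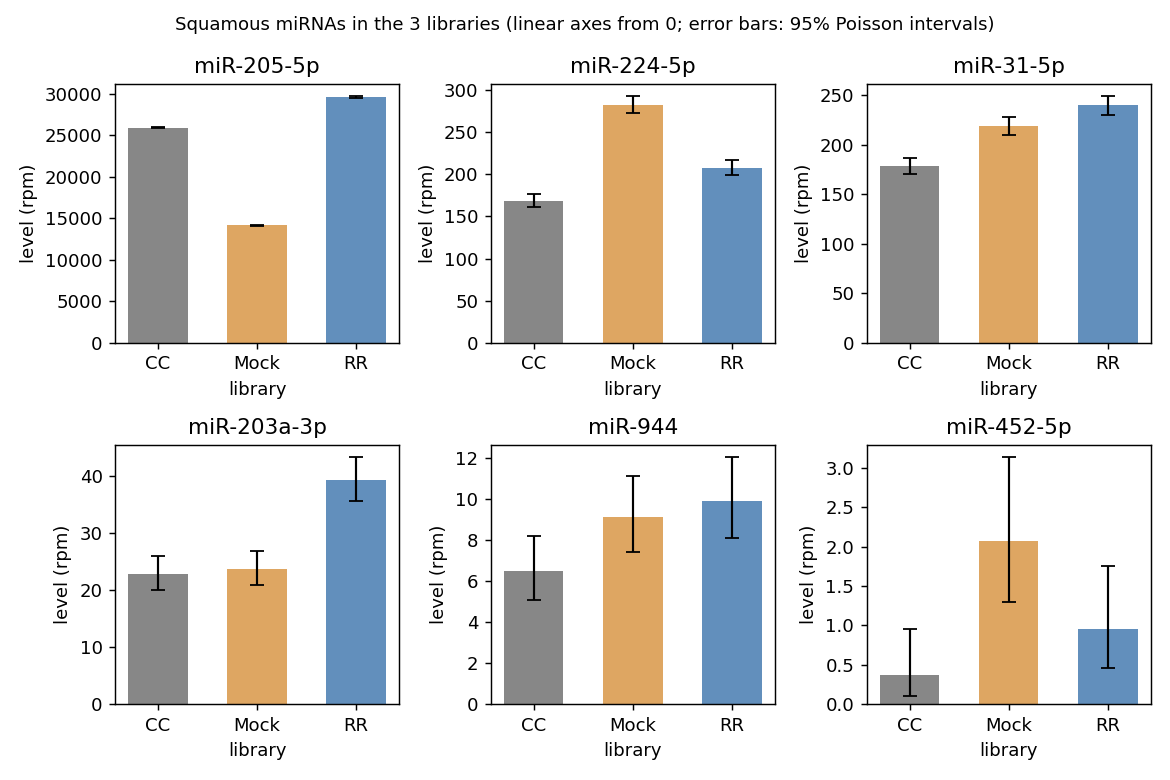
Level of each squamous miRNA in rpm (vertical axes, linear from 0, a different scale per panel) in the libraries CC, Mock and RR, with exact 95% Poisson intervals as error bars. miR-205-5p is lowest in Mock at 14174 rpm, miR-224-5p is highest there at 282 rpm, and miR-203a-3p is highest in RR at 39.2 rpm.

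Mock over CC for miR-205-5p was 0.546 (95% interval 0.543 to 0.550), that is 1.83-fold lower in Mock, or -0.87 on the log2 scale. Of the 208 miRNAs, 9 had a lower log2 ratio. RR over Mock was 2.09-fold (2.08 to 2.10), with 12 miRNAs above it. Between RR and CC the ratio was 1.14 (1.14 to 1.15), a log2 ratio of 0.19 that lay below the median of all miRNAs, with 155 above it and 52 below. With median-ratio scaling, scaling without the 10 most abundant miRNAs and shares of miRNA reads, the RR over CC log2 ratio of miR-205-5p turned to -0.19, -0.13 and -0.14. The Mock over CC log2 ratio kept its sign under these settings, at -1.18, -1.22 and -1.38.

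Ratios to Mock followed GC content across the 208 miRNAs. Spearman's rho between GC content and log2 ratio came to -0.55 in Mock over CC, 0.60 in RR over Mock and 0.05 in RR over CC; miRNAs of a library share its depth and preparation, and are not independent. GC content was therefore set beside each member. Among the 70 other miRNAs within 5 percentage points of the GC content of miR-205-5p, Mock over CC had a median log2 ratio of 0.17, and 4 of the 70 were below its value. With a linear GC trend removed, its log2 ratios were -0.74 in Mock over CC and 0.92 in RR over Mock, the latter under 2-fold. How far the library's GC trend bears on miR-205-5p beyond this was not tested.

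miR-944, the miRNA embedded in TP63, was scarce in every library, with 6.5 rpm (5.07 to 8.21) in CC, 9.12 rpm (7.40 to 11.1) in Mock and 9.93 rpm (8.11 to 12) in RR. CC was lowest, and the intervals of all 3 libraries overlapped. The ratio RR over CC was 1.53 (1.12 to 2.10) and Mock over CC 1.40-fold (1.02 to 1.94), from 70 reads (CC), 97 (Mock) and 104 (RR). RR over Mock was 1.09 (0.817 to 1.45), an interval that holds 1. The log2 ratio Mock over CC, 0.43, turned to -0.02 in shares of miRNA reads and to -0.09 without the GC trend. Against CC, miR-944 did not share the low level of miR-205-5p in Mock. Reads of miR-944 per 1000 reads of miR-205-5p were 0.251 (CC), 0.644 (Mock) and 0.335 (RR). This ratio, which no scaling of a library changes, was 2.57 times as high in Mock as in CC (1.89 to 3.49). miR-944 had the lowest GC content of the members and miR-205-5p the highest, and without the GC trend the value was 1.63, with an interval of 1.2 to 2.22. RR over Mock of the same ratio was 0.520 (0.395 to 0.686). Without the GC trend it was 0.851 (0.645 to 1.12), an interval that holds 1, so against RR the 2 miRNAs were not told apart in Mock.

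miR-203a-3p, the miRNA of differentiating keratinocytes, was highest in RR. CC held 22.8 rpm (20.1 to 25.9), Mock 23.7 rpm (20.9 to 26.8) and RR 39.2 rpm (35.5 to 43.2). The intervals of CC and Mock overlapped, and that of RR lay above both. The ratio RR over CC was 1.72-fold (1.46 to 2.02) and RR over Mock 1.66-fold (1.41 to 1.94), from 246, 252 and 411 reads. Its log2 ratio RR over CC, 0.76, was exceeded by 9 of the 208 miRNAs, and by 2 of the 61 others within 5 percentage points of its GC content of 40.9%. It was 0.38 with median-ratio scaling, where the median of all miRNAs was -0.02. Mock over CC was 1.04-fold (0.867 to 1.24), below the median of 0.62 on the log2 scale among those 61, and its log2 ratio of 0.05 turned to -0.24 with median-ratio scaling and -0.21 without the GC trend.

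**Figure D2:**
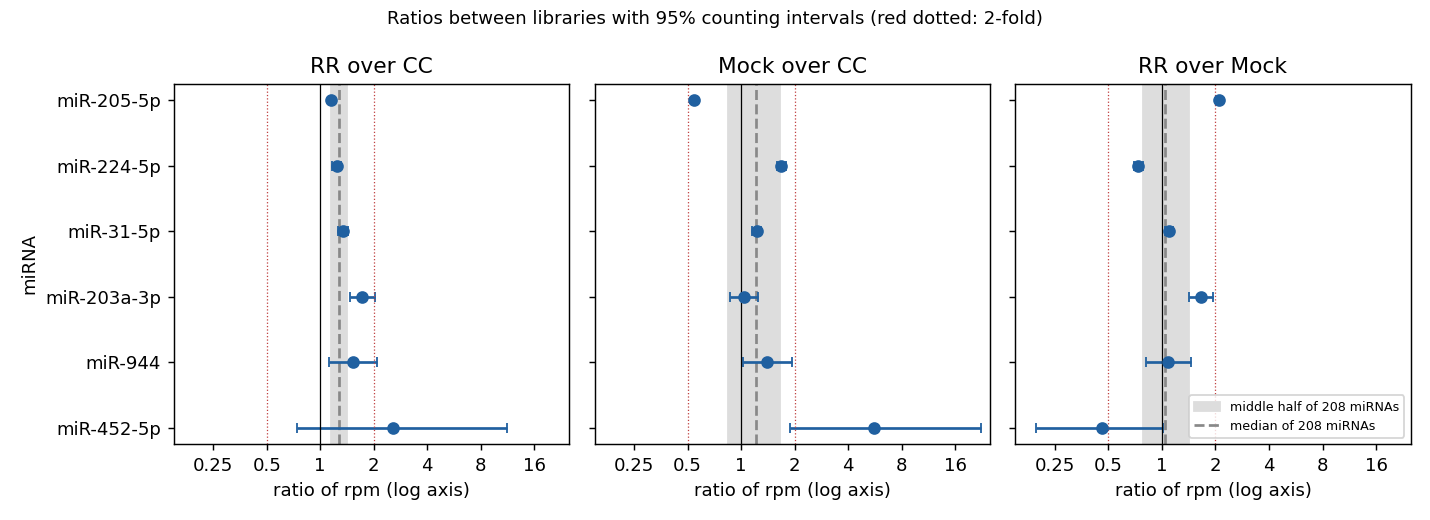
Ratio of rpm between libraries (horizontal log axis) for the 6 squamous miRNAs in RR over CC, Mock over CC and RR over Mock, with 95% counting intervals. The grey band is the interquartile range and the dashed line the median of 208 miRNAs, and dotted red lines mark 2-fold. Points are of unchanged values, while the band and median were taken after adding 1 rpm, so scarce members are not on quite the same scale. miR-205-5p is left of the band in Mock over CC at 0.546 and past 2-fold in RR over Mock at 2.09.

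The opposite strand of the same locus is listed as miR-203b-5p. It is shown because it pairs with miR-203a-3p without mismatch over 21 bases, so that reads of either are told apart by strand alone; the capitals again mark the seed.
miR-203b-5p: uAGUGGUCcuaaacauuucaca

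Of miR-203b-5p, CC held 1 read, Mock 3 and RR 8. For this strand RR over Mock was 2.71 (0.650 to 15.8), an interval that holds 1. Over CC, with its 1 read, the RR ratio was 8.23 (1.10 to 365). There were 246 reads of miR-203a-3p per read of miR-203b-5p in CC (43.7 to 9755), 84.0 in Mock (28.4 to 410.1) and 51.4 in RR (25.8 to 119.8), and these intervals overlapped. miR-203a-5p and miR-203b-3p were not in the table.

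miR-31-5p, the FIH-repressing member, was lowest in CC. CC held 178.6 rpm (170.7 to 186.7), Mock 218.7 rpm (209.9 to 227.7) and RR 239.7 rpm (230.4 to 249.2). The 3 intervals did not overlap, and Mock and RR were closer to each other than to CC. Relative to CC, RR was at 1.34-fold (1.26 to 1.43), Mock over CC 1.22-fold (1.15 to 1.30) and RR over Mock 1.10-fold (1.04 to 1.16). Its log2 ratios, 0.42, 0.29 and 0.13, were close to the medians of all miRNAs, with 76, 101 and 100 of the 208 above them. With median-ratio scaling they were 0.04, -0.01 and 0.05.

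miR-224-5p, from GABRE, was highest in Mock. CC held 168.2 rpm (160.6 to 176.2), Mock 282.4 rpm (272.4 to 292.7) and RR 207.8 rpm (199.1 to 216.7), with no overlap between the intervals. Mock over CC was 1.68-fold (1.58 to 1.78), RR over CC 1.23-fold (1.16 to 1.32) and RR over Mock 0.736 (0.696 to 0.778). The log2 ratio Mock over CC, 0.74, stood beside a median of 0.59 in the 66 other miRNAs of like GC content, 25 of which were above it, and was 0.57 without the GC trend. With median-ratio scaling, scaling without the 10 most abundant miRNAs and shares of miRNA reads it was 0.44, 0.40 and 0.24. The RR over CC log2 ratio, 0.30, turned to -0.08, -0.01 and -0.03 under these scalings.

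miR-452-5p, from the neighbouring hairpin in GABRE, had 4 reads (CC), 22 (Mock) and 10 (RR). Its level was 0.371 rpm in CC (0.101 to 0.951), 2.07 in Mock (1.30 to 3.13) and 0.955 in RR (0.458 to 1.76). Mock over CC was 5.57-fold (1.89 to 22.2). For RR over CC the ratio was 2.57 (0.741 to 11.2) and RR over Mock 0.461 (0.195 to 1.02), and both intervals hold 1. miR-452-5p and miR-224-5p were both highest in Mock, though for miR-452-5p the RR over Mock interval left this unsettled against RR. The order of their RR and CC levels was not settled either. That of miR-224-5p turned with scaling, and for miR-452-5p the RR over CC interval holds 1. There were 453 reads of miR-224-5p per read of miR-452-5p in CC (176.6 to 1664), 136.5 in Mock (90.0 to 218.1) and 217.6 in RR (118.1 to 454.4). The CC interval overlapped both others, but Mock over CC of this ratio was 0.301 (0.0754 to 0.889), an interval below 1.

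By level, miR-205-5p came first in each library, followed by miR-31-5p and miR-224-5p, then miR-203a-3p, miR-944 and miR-452-5p. Read counts of mature miRNAs do not scale with length, but ligation favours some sequences over others, so levels of different miRNAs are less exact than their intervals. miR-31-5p and miR-224-5p were not told apart in CC, where reads of miR-224-5p to miR-31-5p had a ratio of 0.942 (0.883 to 1.01). The order was reversed between the others: the ratio was 1.29 in Mock (1.22 to 1.36) and 0.867 in RR (0.818 to 0.919). Mock over CC of this ratio was 1.37 (1.26 to 1.49) and RR over CC 0.920 (0.843 to 1.004).

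Set against miR-205-5p, the other 3 members above the minimum were all more frequent in Mock than in CC. Per 1000 reads of miR-205-5p, miR-224-5p had 6.48 reads (CC), 19.9 (Mock) and 7.01 (RR). miR-31-5p had 6.88, 15.4 and 8.08 reads, and miR-203a-3p 0.880, 1.67 and 1.32. Mock over CC of these ratios was 3.07 for miR-224-5p (2.90 to 3.26), 2.24 for miR-31-5p (2.11 to 2.38) and 1.90 for miR-203a-3p (1.59 to 2.26). Without the GC trend these values were 2.49, 2.15 and 1.45. RR over CC was 1.08 (1.02 to 1.15), 1.17 (1.11 to 1.25) and 1.5 (1.28 to 1.76). RR over Mock was 0.352 (0.333 to 0.372), 0.524 (0.495 to 0.555) and 0.792 (0.677 to 0.926). Without the GC trend the RR over Mock values were 0.442, 0.549 and 1.06. The last, for miR-203a-3p, had an interval of 0.909 to 1.24 that holds 1. All of them share the reads of miR-205-5p, so they are not independent of one another. miR-200c-3p, an epithelial miRNA of similar abundance that also represses ZEB1 and ZEB2, had 452.5 reads per 1000 of miR-205-5p in CC, 981.9 in Mock and 478.3 in RR.

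**Figure D3:**
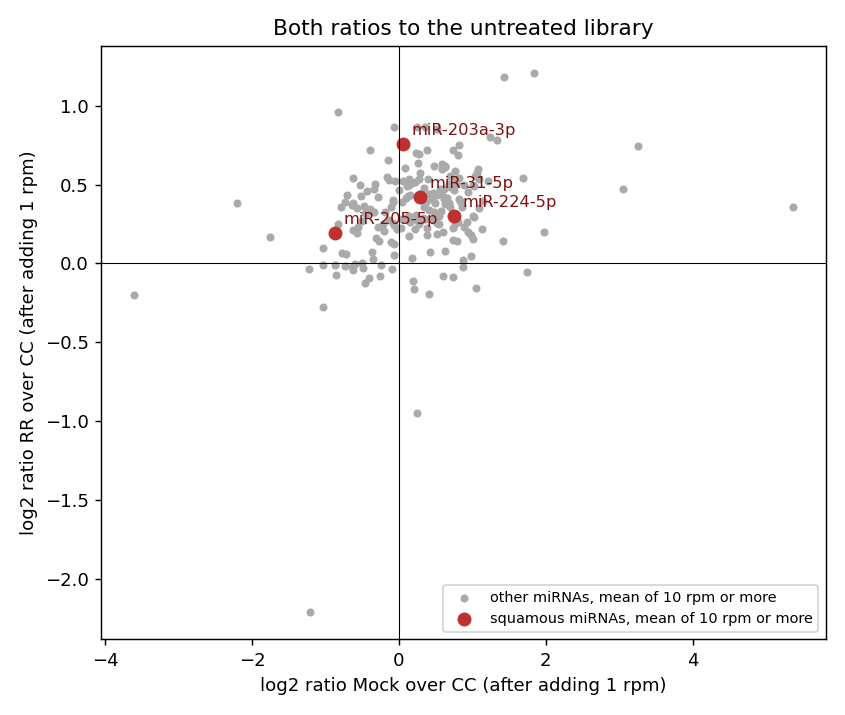
Log2 ratio Mock over CC (horizontal) against RR over CC (vertical), after adding 1 rpm, for the 208 miRNAs above the minimum; grey points are other miRNAs and red points the 4 squamous miRNAs above that minimum. miR-205-5p lies to the left at -0.87, miR-203a-3p towards the top at 0.76, and miR-31-5p near the middle; both axes share the CC library.

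At the 2-fold threshold few of the members were counted. In RR over CC 0 of 4 members passed, where 1.44% of the 208 miRNAs did. In Mock over CC 0 of 4 passed, beside 15.9% of all miRNAs. In RR over Mock miR-205-5p was higher, 1 of 4 beside 8.17% of all miRNAs, and 0 of 4 were lower, beside 4.81%. That single call was lost with median-ratio scaling, at a log2 ratio of 0.98, and without the GC trend, at 0.92. In Mock over CC miR-205-5p was lower by 2-fold or more once the libraries were rescaled, with log2 ratios of -1.18, -1.22 and -1.38 under the 3 scalings.

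A threshold of 1.5-fold counted more of them. In RR over CC it counted miR-203a-3p as higher, beside 13.5% of all miRNAs, and no member as lower, beside 0.962%. That call was lost under the 3 scalings, at log2 ratios of 0.38, 0.45 and 0.43, and with a pseudocount of 10 rpm, at 0.58. In Mock over CC it counted miR-224-5p as higher, beside 33.7%, and miR-205-5p as lower, beside 12.5%. The call of miR-224-5p was lost under the 3 scalings and without the GC trend, and that of miR-205-5p was kept under all of these. In RR over Mock it counted miR-205-5p and miR-203a-3p as higher, 2 of 4 beside 22.1%, and none as lower, beside 14.4%. miR-203a-3p was no longer counted there with a pseudocount of 10 rpm, at 0.55. With 4 members, such shares differ from the background by 1 or 2 miRNAs at most. The median log2 ratio of the 4 was 0.36 in RR over CC, 0.17 in Mock over CC and 0.42 in RR over Mock, beside 0.36, 0.28 and 0.06 over all 208.

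**Figure D4:**
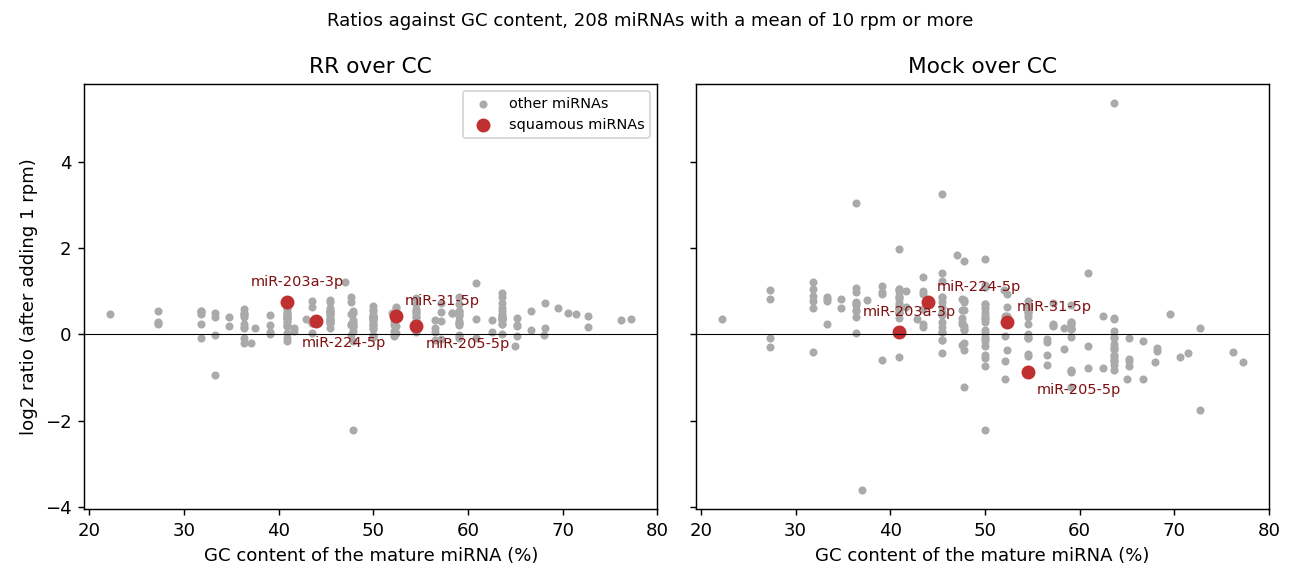
GC content of the mature miRNA in percent (horizontal) against the log2 ratio RR over CC (left) and Mock over CC (right), after adding 1 rpm, for 208 miRNAs; red points are the 4 squamous miRNAs above the minimum. The cloud slopes down in Mock over CC (Spearman -0.55) and is flat in RR over CC (0.05), and miR-205-5p lies near the lower edge on the right at -0.87.

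Both arms of a hairpin are cut from 1 precursor. Like any ratio between miRNAs of the same library, their ratio does not depend on how the library is scaled. The MIR205 hairpin is printed from RefSeq (GRCh38.p14, 5′ to 3′) with both mature arms in capitals, miR-205-5p first, because its arms differed between libraries.
MIR205: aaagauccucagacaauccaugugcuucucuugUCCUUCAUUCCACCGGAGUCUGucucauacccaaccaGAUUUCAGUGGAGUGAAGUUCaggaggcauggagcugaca

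miR-205-3p, the other arm, was rare. It had 28 reads (CC), 44 (Mock) and 54 (RR), or 2.60 rpm (1.73 to 3.76), 4.14 rpm (3.01 to 5.56) and 5.16 rpm (3.87 to 6.73). Whereas miR-205-5p was lower in Mock than in CC, miR-205-3p was not: its ratio Mock over CC was 1.59 (0.969 to 2.65). For RR over CC, miR-205-3p was at 1.98-fold (1.23 to 3.25), beside 1.14-fold for miR-205-5p.

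For each read of miR-205-3p there were 9979.5 reads of miR-205-5p in CC (6905 to 15019), 3425 in Mock (2551 to 4714) and 5751 in RR (4407 to 7655). The intervals of CC and Mock did not overlap, and that of RR overlapped both. This arm ratio was 2.91 times as high in CC as in Mock (1.81 to 4.68), 1.74 times as high in CC as in RR (1.10 to 2.74) and 1.68 times as high in RR as in Mock (1.13 to 2.50). The arms differ in GC content, 54.5% for miR-205-5p and 42.9% for miR-205-3p. Without the GC trend the ratio was 2.31 times as high in CC as in Mock (1.44 to 3.71), and RR over Mock was 1.30, with an interval of 0.876 to 1.94 that holds 1. All 3 comparisons rest on 28 to 54 reads of the rare arm.

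For miR-31 the arm ratios did not differ beyond counting error, and for miR-224 the reads were too few to show a change of the size seen for miR-205. There were 64.1 reads of miR-31-5p per read of miR-31-3p in CC (44.8 to 95.3), 70.5 in Mock (50.0 to 102.6) and 83.7 in RR (58.5 to 124.3), and the largest ratio between libraries, RR over CC, was 1.31 (0.757 to 2.25). miR-31-3p itself had 30, 33 and 30 reads. miR-224-3p had 3, 2 and 6 reads, so that its arm ratio of 604 in CC had an interval of 206.3 to 2932; it was 4.14 times as high in Mock as in RR (0.739 to 42). miR-452-3p was not in the table.

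**Figure D5:**
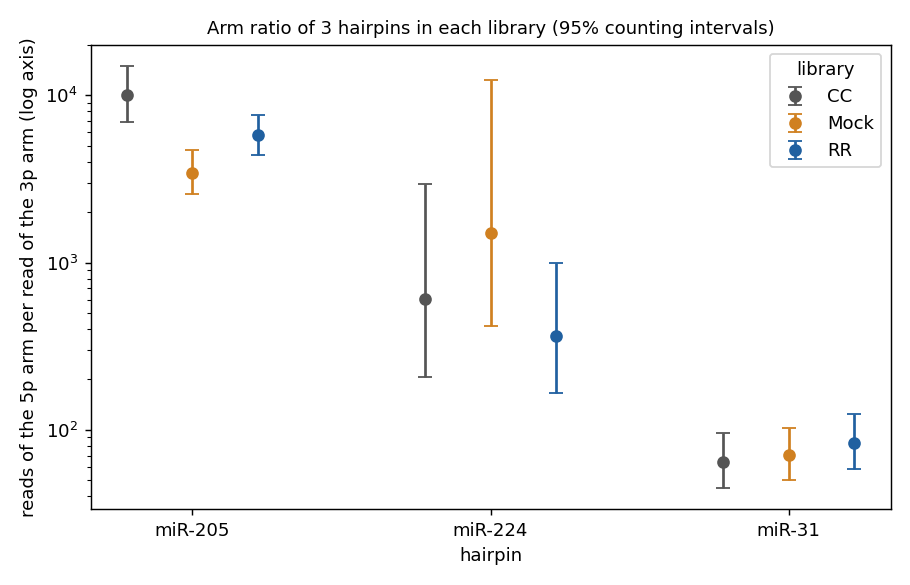
Reads of the 5p arm per read of the 3p arm (vertical log axis) for the miR-205, miR-224 and miR-31 hairpins in CC, Mock and RR, with 95% counting intervals. For miR-205 the CC interval (6905 to 15019) lies above the Mock interval (2551 to 4714); for miR-31 and miR-224 the intervals of all libraries overlap.

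The miRNAs most like each member were found by the distance between their pairs of log2 ratios (RR over CC and Mock over CC) among 204 other miRNAs, over 3 libraries. With so few libraries, near matches are frequent. Nearest to miR-205-5p were miR-193b-5p (distance 0.07), miR-7706 (0.16) and miR-296-5p (0.18); miR-193b-5p, at 19.3 rpm in CC, 10.4 rpm in Mock and 23.2 rpm in RR, was far scarcer. Nearest to miR-203a-3p were miR-744-5p (0.15), miR-194-3p (0.16) and miR-769-5p (0.19). Nearest to miR-31-5p were miR-30d-5p (0.02), miR-3158-3p (0.02) and miR-12135 (0.08). Nearest to miR-224-5p were miR-181b-5p (0.06), miR-221-3p (0.07) and miR-181a-3p (0.07).

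Other miRNAs tied to p63, epithelial identity and keratinocytes were read from 3 lists. Of 9 p63-linked miRNAs, 3 passed the minimum, and 0 of 3 differed by 2-fold in any comparison, beside 1.44% of all 208 miRNAs in RR over CC, 15.9% in Mock over CC, and 8.17% higher and 4.81% lower in RR over Mock; a count of 0 among 3 is no departure from such shares. Their median log2 ratios were 0.25 in RR over CC, 0.28 in Mock over CC and -0.36 in RR over Mock. miR-193a-5p, which targets the p53 relative p73, stood at 13.2 rpm (CC), 16.2 rpm (Mock) and 22 rpm (RR), an RR over CC ratio of 1.67 (1.35 to 2.07). miR-181a-5p had a ratio RR over CC of 0.895 (0.856 to 0.935), and miR-181b-5p of 1.19 (1.11 to 1.27).

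Of 6 epithelial identity miRNAs, 5 passed the minimum, all of the miR-200 family, with medians of 0.38, 0.54 and -0.11. In RR over CC 0 of 5 passed 2-fold, beside 1.44% of all miRNAs. In RR over Mock 0 of 5 were higher, beside 8.17%, and 0 of 5 lower, beside 4.81%. Counts of 0 among 5 are no departure from such shares. In Mock over CC 1 of 5 passed, close to the 15.9% of all miRNAs in either direction. This was miR-141-3p, with 16.6 rpm (CC), 34.4 rpm (Mock) and 23.9 rpm (RR), 2.07-fold higher in Mock (1.73 to 2.49). Its log2 ratio after adding 1 rpm, 1.01, was close to the threshold of 1, and the call was not followed under other settings. miR-184, a miRNA of corneal and epidermal keratinocytes, had 3, 2 and 6 reads.

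All 9 miRNAs of keratinocyte differentiation and stemness passed the minimum, with medians of 0.41, 0.77 and -0.24. In RR over CC 0 of 9 passed 2-fold, beside 1.44% of all miRNAs. miR-24-3p, which promotes keratinocyte differentiation, had the largest ratio, 1.51-fold (1.47 to 1.54). miR-125b-5p, known from skin stem cells, was at 1.33-fold and miR-378a-3p at 1.33-fold. In Mock over CC 3 of 9 were higher, miR-99a-5p and miR-146a-5p besides miR-21-5p, and 0 of 9 were lower. Of all miRNAs, 15.9% passed in either direction. The log2 ratio of miR-99a-5p was 1.15, and these calls were not followed under other settings either. In RR over Mock 2 of 9 were lower, miR-146a-5p and miR-21-5p, beside 4.81%, and 0 were higher, beside 8.17%. The abundant oncogenic miR-21-5p took up 4475 rpm of CC, 36929 rpm of Mock and 6209 rpm of RR. In Mock it, and not miR-205-5p, was the most abundant miRNA.

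Markers of other tissues were read as whole lists. The 3 erythroid markers miR-486-5p, miR-451a and miR-144-3p summed to 9.47 rpm (CC), 407.9 (Mock) and 12.2 (RR), high in the library where miR-205-5p was low, and miR-144-3p was at 0 reads in CC and RR. Of the Mock sum, 397.7 rpm was miR-486-5p. Of 4 markers of white blood cells 3 were in the table, with sums of 0.0929, 1.98 and 0.0955 rpm. Of 6 fibroblast markers 3 were in it, and these summed to 6.41, 5.64 and 6.49 rpm. Sums were 55.2, 66.9 and 81.9 rpm for the 2 endothelial markers and 166.3, 227.0 and 253.8 rpm for 3 of 4 glandular epithelial markers. The 3 muscle markers summed to 341.0, 344.8 and 408.5 rpm, mostly miR-1-3p. Among them, miR-206 alone had 19, 271 and 38 reads. The part of these other miRNAs in the level of miR-205-5p was not tested. The 6 squamous members summed to 26321, 14710 and 30149 rpm, nearly all miR-205-5p, above each of these tissue marker sums in all 3 libraries.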

How the data were processed

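Small RNA libraries were ligated, amplified and size-selected from total RNA, per the labels' protocols; Bowtie and GRCh38 stand in the submitters' processing notes without role or version. Trimming, miRNA reference and multi-mapping: not given in the sources used here. The deposited values, which the authors named TPM, behave as RPM, reads per miRNA divided by a library total with no use of length. This was read from the values: 100% of values were whole multiples, within 0.01 read, of 1 step per library, which gave reads and totals. A deposited column gives each miRNA's length.

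From these, exact Poisson intervals of levels were computed, and ratios between libraries or miRNAs with Clopper-Pearson limits. Ratios of such ratios have exact conditional intervals, or log-normal ones where a count reached 5000. No count model was fitted, since each group has 1 library. Calls need a mean of 10 rpm and 2-fold after adding 1 rpm. The functions were tested on simulated data.

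The members, lists and thresholds were chosen with earlier results of these data known. The rule named the members, their opposite arms, miRNAs with the same seed, the 3 nearest patterns, the lists with up to 4 miRNAs each and the tissue markers; miR-146a-5p, miR-99a-5p and miR-141-3p were named because they passed 2-fold. Alternatives were other pseudocounts, filters, scalings, a 1.5-fold threshold and removal of a linear GC trend centred on the mean GC content. Sequences are RefSeq's (GRCh38.p14), and hosts GENCODE 29's. Intervals came from scipy 1.17.1 and figures from matplotlib 3.10.9, on Python 3.11.15 with pandas 2.3.3 and numpy 2.4.6.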

Additional observations from a re-analysis of the deposited data

How the results depend on the processing

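In Mock over CC, 0 of the 4 tested members passed 2-fold, and 1 did with median-ratio scaling, with totals that leave out the top 10 miRNAs and with shares of miRNA reads (each time miR-205-5p, lower), 1 without a filter (miR-452-5p) and 2 at 1.5-fold. In RR over CC the count was 0, and 1 at 1.5-fold. In RR over Mock it was 1, but 0 with median-ratio scaling and without the GC trend, and 2 at 1.5-fold. The remaining settings left these counts as they were. The number of all 208 miRNAs past 2-fold in Mock over CC was 33, and 16 with a pseudocount of 10 rpm and 21 without the GC trend; in RR over CC it was 3, and 1 with that pseudocount; in RR over Mock it was 27, and 16 and 14 with the pseudocount and without the trend. Adding 1 rpm to both arms moved the arm ratio of miR-224 to 132.4 (CC), 238.6 (Mock) and 132.7 (RR), below its intervals, because miR-224-3p is under 1 rpm; those of miR-205 and miR-31 stayed within theirs. No paired analysis was possible because each group has 1 library, and leaving out a library would end a comparison. Removing the GC trend from ratios between miRNAs, an alternative chosen after seeing the data, left the arm ratio changes within their intervals. For the miR-205 arms, RR over Mock still went from 1.68 to 1.30, with an interval of 0.876 to 1.94 that holds 1. Ratios to miR-205-5p left their intervals in Mock over CC and RR over Mock for miR-224-5p, miR-203a-3p, miR-944 and miR-200c-3p, but not for miR-31-5p. Without the trend, RR over Mock of miR-203a-3p to miR-205-5p went from 0.792 to 1.06. The Mock over CC change of miR-944 to miR-205-5p moved from 2.57 to 1.63. The RR over Mock change of that pair moved from 0.520 to 0.851, with an interval of 0.645 to 1.12 that holds 1. Depth limits what can be said of miR-452-5p, miR-203b-5p and the 3p arms.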
